A study of Rattus norvegicus with 15 samples.

Results

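The 7 genes described here are rows of the rat lumbar spinal cord count tables that stood out in at least 1 pairwise comparison of ligated rats that received a preparation named YH, alone or within the Yuan-Hu Zhi Tong Prescription (YZP), with ligated rats that did not. They are 7 of 34202 rows, and of 16522 genes that passed the filter on low counts, which all 7 passed. They were chosen by their measured values. In the model of all libraries, 8 genes had an edgeR adjusted p under 0.05 in any of the 4 pairwise comparisons of a group given YH with a ligated group not given it. The 7 genes are among these 8, and the other, ENSRNOG00000011427, is not a member. CCI+YH against CCI+BZ called 6 of the 7 (0.0424% of all genes were called there), CCI+YZP against CCI+BZ called 3 (0.0182%), and CCI+YZP against CCI called 1 (0.00605%). CCI+YH against CCI, the direct comparison of YH with untreated ligation, had no edgeR call (0%). There 923 genes reached an unadjusted p under 0.05, limma voom called 0, and DESeq2 called 11, 1 of them a member. These comparisons are therefore given below as descriptions, with no test. The tables list genes by Ensembl identifier, and 0 of the 7 could be paired with a symbol here, so their products are not named.

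RNA was sequenced from the L4-L6 cord on the operated side of adult male Sprague-Dawley rats, in 15 libraries, 3 in each of 5 groups. In chronic constriction injury (CCI), loose ligatures are tied around the sciatic nerve, while in the Sham group the nerve was exposed and left unligated. The CCI group was ligated and given no preparation. The CCI+YZP, CCI+YH and CCI+BZ groups were ligated and dosed for 5 days from postoperative day 6 to day 10, at 10.8, 7.2 and 3.6 g crude drug per kg, and tissue was taken on day 10. The doses of YH and BZ add up to that of YZP, and the comparisons below take YZP to hold both. The labels do not list what is in the preparations. The tissue was not separated by cell type, so a change in the number of cells of a type and a change of RNA per cell cannot be told apart. The tissue label was not checked against cell markers, since markers could not be matched to identifiers.

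The lumbar cord receives the central endings of sciatic sensory fibres, which synapse on neurons of the dorsal horn. Ligation of the nerve is a widely used model of neuropathic pain, in which neurons and glia of the dorsal horn alter their gene expression. The prescription is an old Chinese analgesic formula, traditionally made from the tuber of Corydalis yanhusuo, known for its isoquinoline alkaloids, and the root of Angelica dahurica, known for its furanocoumarins. Levels are given as CPM, counts scaled to library size by edgeR's cpm function after TMM scaling (trimmed mean of M-values), and differences as log2 differences from edgeR with their standard errors.

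Total counts ranged from 15093246 to 22757104 per library. The 3 most abundant genes took 6.76% to 9.60% of the counts of a library. Member counts ran from 28, for ENSRNOG00000050647 in a CCI+BZ library, to 3067, for ENSRNOG00000021824 in a CCI+YZP library. No member was at 0 in any library.

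The gene that was lower with YH was ENSRNOG00000013548. It stood at 57.5, 44.0 and 14.5 CPM in the Sham libraries, at 66.4, 114 and 41.5 in CCI, and at 131, 73.9 and 39.3 in CCI+BZ. With YH it stood at 4.43, 4.35 and 5.30 CPM in CCI+YH and at 11.6, 7.10 and 6.37 CPM in CCI+YZP. All 6 libraries given YH lay below the other 9 libraries, Sham included, and the mean of the ligated libraries without YH was 11.9-fold that of the libraries with it. Among all genes, 0.272% lay lower in all 6 libraries with YH than in all 6 ligated libraries without it. The log2 difference was -3.98 (SE 0.582) for CCI+YH minus CCI and -3.30 (SE 0.547) for CCI+YZP minus CCI+BZ, 2 differences that share no library. Each includes a group of the comparison that called this gene, so their agreement is not a separate finding. Levels varied widely where YH was absent, with a coefficient of variation of 56.8% in Sham, 49.7% in CCI and 56.8% in CCI+BZ, and of 11.2% in CCI+YH and 34.1% in CCI+YZP (n = 3 each). Its fitted biological coefficient of variation of 40.9% was at the 95.0th percentile of all genes, and its highest library held 30.0-fold the CPM of its lowest.

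The other 6 genes are called higher with YH because their mean over the ligated libraries with YH was above that without it. This does not mean that each group given YH lay above untreated CCI. Of these 6, ENSRNOG00000045863 separated the libraries completely. It stood at 10.5, 9.69 and 9.66 CPM in CCI+YH and at 10.0, 10.1 and 8.96 CPM in CCI+YZP. The libraries without YH held 7.18, 6.98 and 7.79 CPM in CCI, 6.09, 5.31 and 5.54 in CCI+BZ, and 5.95, 6.85 and 6.59 in Sham. Every library with YH lay above every library without it, a pattern that 0.151% of all genes showed between the 6 ligated libraries with and the 6 without YH. The mean with YH was 1.52-fold that of the ligated libraries without it. CCI+YH and CCI+YZP overlapped, at 9.95 ± 0.482 and 9.71 ± 0.650 CPM (SD, n = 3 each).

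ENSRNOG00000021824 was lowest in CCI+BZ and highest in CCI+YZP. CCI+BZ stood at 91.5, 87.1 and 87.9 CPM, followed by Sham at 105, 112 and 99.0, CCI at 125, 107 and 117, CCI+YH at 146, 115 and 134, and CCI+YZP at 146, 150 and 150. Every CCI+BZ library lay below every other library. Sham and CCI overlapped, as did CCI and CCI+YH, through CCI+YH replicate 2 at 115 CPM. The mean of CCI+YZP was 1.28-fold that of CCI and 1.68-fold that of CCI+BZ. The log2 difference was 0.17 (SE 0.0802) for CCI+YH minus CCI and 0.75 (SE 0.0808) for CCI+YZP minus CCI+BZ.

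ENSRNOG00000010706 was highest in the group given the whole prescription. It stood at 22.4, 20.2 and 23.7 CPM in CCI+YZP, and at 16.5, 13.4 and 13.7 CPM in CCI+YH. Sham held 10.6, 12.1 and 11.3 CPM, CCI 10.6, 11.5 and 11.9, and CCI+BZ 11.3, 11.6 and 14.3. All 6 libraries with YH lay above all Sham and CCI libraries, while CCI+BZ replicate 3, at 14.3 CPM, lay above 2 libraries of CCI+YH. The CCI+YZP mean was 1.95-fold that of CCI, and the CCI+YH mean 1.28-fold. The mean of CCI was 0.999-fold that of Sham.

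In the other 3 genes the CCI+YZP libraries overlapped those of untreated CCI, which they did not in the first 4. ENSRNOG00000019140 stood at 24.2, 24.3 and 25.0 CPM in CCI+YH, 20.5, 26.3 and 20.7 in CCI+YZP, and 21.8, 16.0 and 20.2 in CCI. It stood at 14.9, 14.7 and 12.7 CPM in CCI+BZ and 13.4, 14.2 and 13.6 in Sham. Sham and CCI+BZ overlapped, and every library of the other 3 groups lay above both. CCI+YZP and CCI overlapped through CCI replicate 1.

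ENSRNOG00000050655 went against the description of a gene that differs with YH. It stood at 79.4, 59.1 and 68.8 CPM in CCI and at 55.4, 66.7 and 50.2 CPM in CCI+YZP, so that the group given the prescription had 0.831-fold the mean of untreated CCI. CCI+YH held 76.1, 65.4 and 81.8 CPM and Sham 46.7, 53.4 and 51.3. CCI+BZ held 39.6, 40.8 and 40.8 CPM, below all other libraries. The SD in CCI+BZ was 0.658 CPM, and CCI overlapped CCI+YH. Its log2 difference was 0.11 (SE 0.117) for CCI+YH minus CCI, and 0.51 (SE 0.119) for CCI+YZP minus CCI+BZ.

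ENSRNOG00000050647 had the widest range of the 6, with 24.6-fold between its highest and lowest library. It stood at 36.6, 14.8 and 26.0 CPM in CCI+YH, 9.47, 18.8 and 10.7 in CCI+YZP, 20.7, 6.53 and 10.0 in CCI, and 8.68, 7.43 and 7.60 in Sham. CCI+BZ held 2.24, 1.49 and 2.12 CPM, from 42, 28 and 41 counts, and every other library lay above these. The Sham mean was 4.05-fold and the CCI+YH mean 13.2-fold that of CCI+BZ. CCI spanned the Sham range, and CCI+YZP overlapped CCI, with a ratio of means of 1.05. Its fitted biological coefficient of variation was 33.6%, at the 92.3rd percentile of all genes. The same measure was 7.50% to 11.0% in the 5 other genes that were higher with YH, between the 23.0th and the 48.7th percentile.

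**Figure D1:**
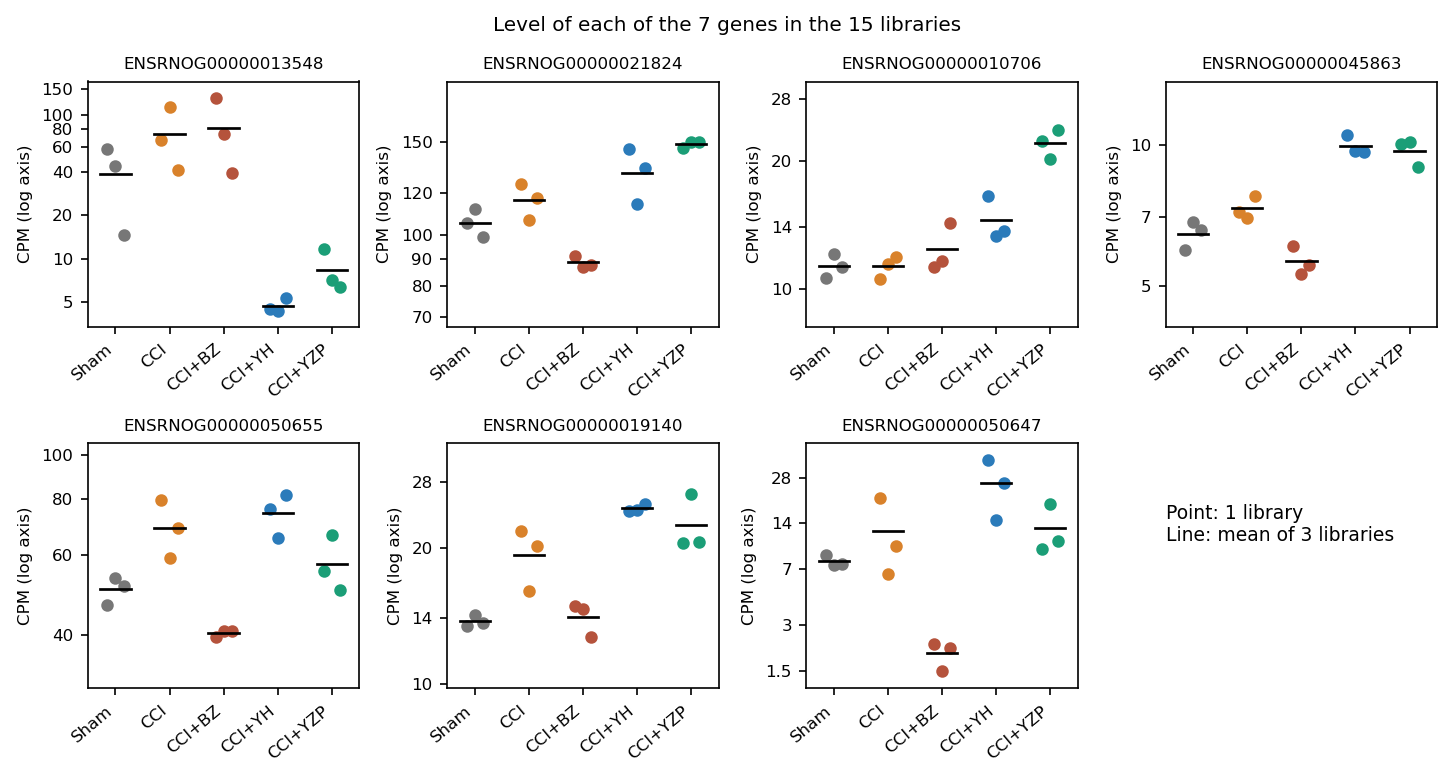
CPM of each of the 7 genes in the 15 libraries, on log axes with a different range in each panel; points are libraries and lines are group means (n = 3). ENSRNOG00000013548 lies at 4.35 to 11.6 CPM in the 6 libraries given YH and at 14.5 to 131 CPM in the others, while CCI+BZ is the lowest group for ENSRNOG00000021824, ENSRNOG00000045863, ENSRNOG00000050655 and ENSRNOG00000050647.

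A contrast of the 2 groups given YH with the 2 ligated groups not given it averages these patterns. The members were chosen on this kind of difference, and the values only describe them. The log2 difference was -3.64 (SE 0.399) for ENSRNOG00000013548 and 1.89 (SE 0.298) for ENSRNOG00000050647. It was 0.61 (SE 0.0719) for ENSRNOG00000045863, 0.60 (SE 0.0806) for ENSRNOG00000010706, 0.51 (SE 0.0845) for ENSRNOG00000019140, 0.46 (SE 0.0569) for ENSRNOG00000021824 and 0.31 (SE 0.0833) for ENSRNOG00000050655. In this contrast 4 genes of all tested (0.0242%) had an adjusted p under 0.05, and all 4 were members: ENSRNOG00000013548, ENSRNOG00000045863, ENSRNOG00000021824 and ENSRNOG00000010706. ENSRNOG00000050647, ENSRNOG00000019140 and ENSRNOG00000050655 ranked 5, 6 and 97 of all genes by p. The choice on these libraries favours such calls and ranks, so they are no test of the members. The groups without overlap were those of ENSRNOG00000013548 and ENSRNOG00000045863.

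The levels in groups on the same side of that contrast varied between members. From CCI to CCI+BZ, the log2 difference was -2.67 (SE 0.450) for ENSRNOG00000050647, -0.77 (SE 0.118) for ENSRNOG00000050655, -0.46 (SE 0.120) for ENSRNOG00000019140, -0.39 (SE 0.0806) for ENSRNOG00000021824 and -0.37 (SE 0.103) for ENSRNOG00000045863. For all 5, every CCI+BZ library lay below every CCI library, as 5.88% of all genes did. ENSRNOG00000013548 differed by 0.13 (95% interval -0.88 to 1.15) and ENSRNOG00000010706 by 0.13 (-0.11 to 0.38). Comparisons with CCI+BZ called all 7 members, so the CCI+BZ level is not independent of the choice. Over all genes, edgeR called 0 between CCI+BZ and CCI (0% of genes), with 1095 at an unadjusted p under 0.05. DESeq2 called 20 and limma voom 0. The 3 members among those 20 were ENSRNOG00000050655, ENSRNOG00000050647 and ENSRNOG00000021824, which DESeq2 placed lower in CCI+BZ.

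Between the groups given YH, ENSRNOG00000010706 was 0.61 (SE 0.113) higher in CCI+YZP than in CCI+YH on the log2 scale, and its 3 CCI+YZP libraries lay above its 3 CCI+YH libraries. ENSRNOG00000021824 was 0.18 (SE 0.0801) and ENSRNOG00000013548 0.82 (SE 0.620) higher in CCI+YZP, also without overlap, a pattern shown by 4.12% of all genes. ENSRNOG00000050647 was lower in CCI+YZP, at -0.98 (SE 0.388), as was ENSRNOG00000050655, at -0.37 (SE 0.117), and the libraries overlapped for both. The 95% interval was -0.25 to 0.18 for ENSRNOG00000045863 and -0.38 to 0.13 for ENSRNOG00000019140. EdgeR called 0 genes in this comparison (0%), with 588 at an unadjusted p under 0.05. Limma voom called 0 and DESeq2 2, of which 1 was ENSRNOG00000010706. That gene was chosen on comparisons with CCI+YZP, so its call is given as a description. The doses of the 2 groups differed.

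Departure from additivity was measured as the log2 difference of CCI+YZP from CCI minus those of CCI+YH and CCI+BZ from CCI. The departure was above 0 for all 7 members, from 0.33 (SE 0.169) for ENSRNOG00000019140 to 1.69 (SE 0.590) for ENSRNOG00000050647, with a median of 0.47, while 50.5% of all genes were above 0 and their median was 0.0022. For ENSRNOG00000021824 it was 0.57 (SE 0.114). The libraries in this measure are those on which the members were chosen, so its direction in the 7 is given as a description. EdgeR called 0 genes (0%), with 667 at an unadjusted p under 0.05, limma voom called 0, and DESeq2 called 4, of which 1 was ENSRNOG00000021824.

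**Figure D2:**
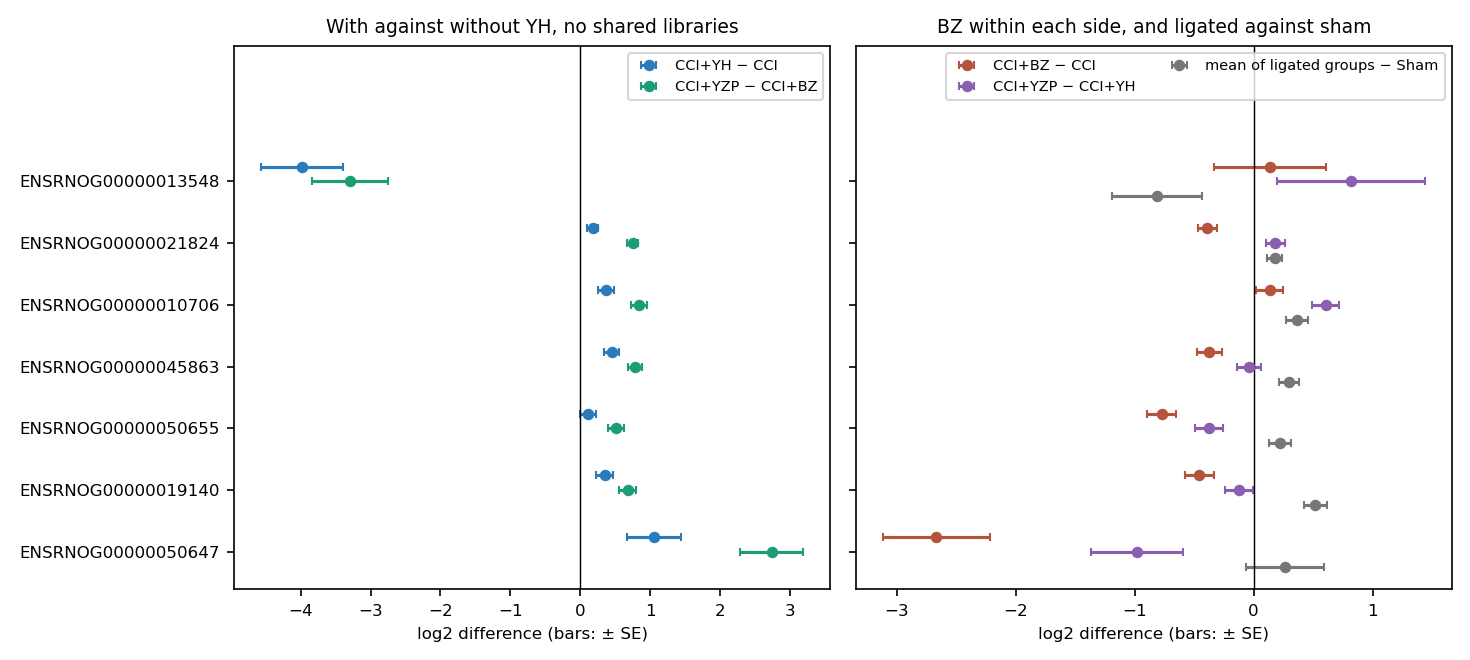
Log2 differences of the 7 genes with their standard errors. The left panel sets CCI+YH minus CCI beside CCI+YZP minus CCI+BZ, and the right panel shows CCI+BZ minus CCI, CCI+YZP minus CCI+YH, and the mean of the 4 ligated groups minus Sham. On the left, ENSRNOG00000013548 lies at -3.98 and -3.30 and the other 6 lie above 0; on the right, 5 genes lie below 0 for CCI+BZ minus CCI, the lowest at -2.67.

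Sham libraries entered the choice of the members only through the filter on low counts, the TMM scaling and the shared estimate of the spread. The mean of the 4 ligated groups against Sham is orthogonal to every difference among the ligated groups, so this comparison was tested. Of the ligated libraries, 6 were given YH, so a level that differs with YH also moves this mean. The comparison is therefore not one of ligation alone, and ligation and treatment cannot be told apart in it. No member passed the adjustment, where 31 of all genes did (0.188%). ENSRNOG00000019140 came nearest, with 13.4, 14.2 and 13.6 CPM in Sham and 12.7 to 26.3 CPM in the ligated libraries, a log2 difference of 0.52 (SE 0.0983, edgeR adjusted p = 0.0510). Its ligated libraries overlapped Sham, since the CCI+BZ level was that of Sham. Its adjusted p was 0.000642 in DESeq2 and 0.304 without Sham replicate 1, the extremes over its alternatives, and it passed in 6 of 21.

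The other members had larger adjusted p in this comparison. ENSRNOG00000010706 was 0.36 (SE 0.0925) higher in the mean of the ligated groups than in Sham (edgeR adjusted p = 0.111). Its level was 11.3 CPM in both Sham and untreated CCI, 12.4 in CCI+BZ, 14.5 in CCI+YH and 22.1 in CCI+YZP. ENSRNOG00000045863 was 0.30 (SE 0.0820) higher (edgeR adjusted p = 0.123), and the adjusted p of the remaining 4 ran from 0.203 to 0.727. ENSRNOG00000013548 was -0.82 (SE 0.379) from Sham. By group its mean was above Sham (38.6 CPM) in CCI (73.9) and CCI+BZ (81.3), whose libraries overlapped those of Sham. It was below Sham in CCI+YH (4.69) and CCI+YZP (8.37). In all 6 members were above Sham and 1 was below, with a median log2 difference of 0.26, against a median of -0.0037 over all genes. An unadjusted p under 0.05 was reached by 6 of the 7 members and by 16.1% of all genes. The ligated libraries and the estimate of the spread are shared with the comparisons that chose the members. The 6 above and 1 below are the same genes as in the contrast with against without YH. The direction and the 6 of 7 are therefore not independent of the choice, and are given as descriptions. DESeq2, run on all rows with any count, called 470 genes, among them 2 members, ENSRNOG00000010706 and ENSRNOG00000019140. The number of genes called by edgeR moved by over 1.5 times without any single library except CCI replicate 2, from 0 without Sham replicate 1 to 158 without CCI+BZ replicate 3.

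Set against Sham by group, the members placed the treatments differently. All 6 libraries with YH lay above all Sham libraries for 5 members (4.64% of all genes): ENSRNOG00000021824, ENSRNOG00000010706, ENSRNOG00000045863, ENSRNOG00000019140 and ENSRNOG00000050647. They lay below for ENSRNOG00000013548 (3.65%), and for ENSRNOG00000050655 5 of the 6 lay above. Untreated CCI lay wholly above Sham for ENSRNOG00000045863, ENSRNOG00000050655 and ENSRNOG00000019140, as did 13.2% of all genes. CCI+BZ lay wholly below Sham for ENSRNOG00000021824, ENSRNOG00000050655 and ENSRNOG00000050647, as did 5.76% of all genes. Levels with YH and in CCI+BZ entered the choice of the members, so these counts beside the shares of all genes are descriptions. For none of the 7 did the 12 ligated libraries all lie on 1 side of Sham, where they lay above for 1.34% and below for 1.16% of all genes.

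Correlations between the members were taken on log2 CPM for the 21 pairs. Over all 15 libraries, the 15 pairs among the 6 genes higher with YH had Pearson's r of 0.11 to 0.91, with a median of 0.80. The highest was between ENSRNOG00000021824 and ENSRNOG00000045863 (r = 0.91, rho = 0.90), followed by ENSRNOG00000050655 with ENSRNOG00000050647 (r = 0.90, rho = 0.85) and ENSRNOG00000045863 with ENSRNOG00000019140 (r = 0.90, rho = 0.86). The lowest was between ENSRNOG00000010706 and ENSRNOG00000050655, at 0.11. ENSRNOG00000013548 had r of -0.83 to -0.50 with the others. These values hold the differences between groups for which the genes were chosen, and are descriptions.

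Deviations from the group means do not hold those differences. Within groups the median r of the same 15 pairs was 0.38, with 12 of 15 above 0 and a range of -0.51 to 0.78. The share above 0 over pairs of all genes was not computed, so the 12 of 15 is a description. ENSRNOG00000021824 and ENSRNOG00000050647 had r = 0.78 and rho = 0.76 (exact permutation within groups, two-sided, p = 0.0072 and 0.0069, adjusted over 21 pairs 0.115 and 0.146). Without the 2 libraries farthest from the median r was 0.68. ENSRNOG00000050655 had r = 0.77 with ENSRNOG00000050647 (rho = 0.69, exact permutation adjusted p = 0.201 and 0.226) and with ENSRNOG00000019140 (rho = 0.61, adjusted p = 0.115 and 0.226), and r = 0.66 and 0.58 without the 2 farthest libraries. No pair passed the adjustment for Pearson's r or for rho, and 4 and 3 pairs had an unadjusted exact permutation p under 0.05. ENSRNOG00000021824 with ENSRNOG00000050647 passed with the replicate number as a block (adjusted permutation p = 0.0486) and without Sham replicate 2 (0.0405), and the 18 alternatives of this pair gave 0.0405 to 0.325. The lowest r was -0.51, between ENSRNOG00000010706 and ENSRNOG00000019140 (adjusted permutation p = 0.226). ENSRNOG00000013548 had within-group r of -0.39 to 0.11.

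**Figure D3:**
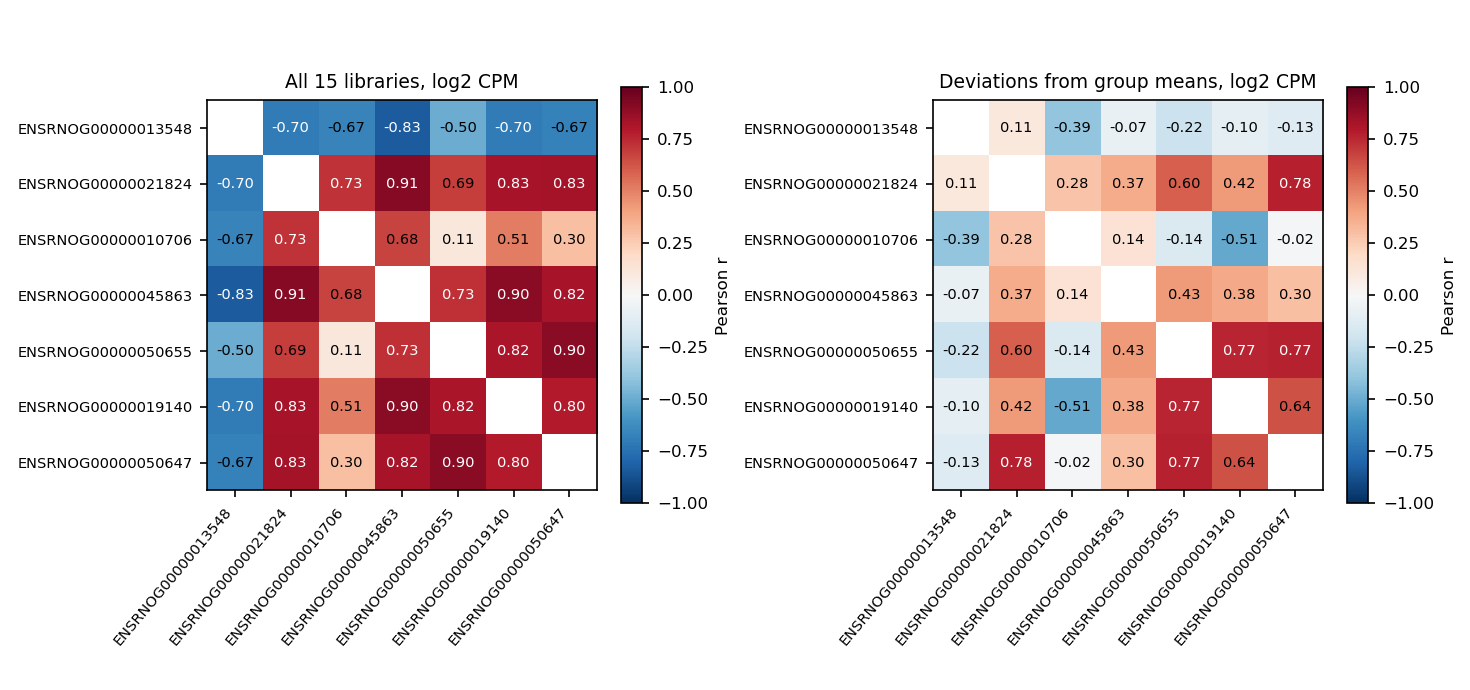
Pearson's r of log2 CPM for each pair of the 7 genes, over all 15 libraries (left) and over deviations from the group means (right), on a colour scale from -1 to 1. The block of positive values among 6 genes on the left, with a median of 0.80, is paler on the right, where the median is 0.38 and ENSRNOG00000050655, ENSRNOG00000019140, ENSRNOG00000050647 and ENSRNOG00000021824 hold the highest values.

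The first principal component of all genes moved with some members within groups. Over deviations from group means in the 15 libraries, its r was 0.62 with ENSRNOG00000019140, 0.59 with ENSRNOG00000045863, 0.51 with ENSRNOG00000050655, 0.50 with ENSRNOG00000050647 and 0.45 with ENSRNOG00000021824. For ENSRNOG00000010706 it was -0.36 and for ENSRNOG00000013548 0.17. Across all 15 libraries, r with log2 total count ran from -0.50 for ENSRNOG00000045863 to 0.45 for ENSRNOG00000013548, and the libraries of CCI+YH and CCI+YZP included the 2 with the lowest totals, 15093246 and 15605935. The part of these measures in the differences between groups was not tested.

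For each member, the other gene with the most similar log2 CPM over the 15 libraries was also found, among tested genes with an Ensembl identifier. Of the genes tested, 911 had none. ENSRNOG00000010298 was nearest to ENSRNOG00000050655 (r = 0.95) and repeated its order of groups, with 81.7 ± 6.59 CPM in CCI+YH, 79.8 ± 9.86 in CCI, 69.7 ± 8.36 in CCI+YZP, 60.8 ± 3.23 in Sham and 57.0 ± 0.804 in CCI+BZ (SD, n = 3 each). ENSRNOG00000000250 was nearest to ENSRNOG00000021824 (r = 0.95), with 19.1 ± 1.57 CPM in CCI+YZP and 13.5 ± 0.561 in CCI+BZ. ENSRNOG00000018796 was nearest to ENSRNOG00000045863 (r = 0.92) and ENSRNOG00000025742 to ENSRNOG00000019140 (r = 0.92). ENSRNOG00000045654 was nearest to ENSRNOG00000050647 (r = 0.91), at 1.26 ± 0.142 CPM in CCI+YH and 0.123 ± 0.0320 in CCI+BZ. At 0.104 to 0.160 CPM, its CCI+BZ level rested on a few reads per library.

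The 2 remaining members were less closely followed. ENSRNOG00000054294 was nearest to ENSRNOG00000013548 (r = 0.89), but its range was far narrower, at 21.9 ± 0.805 CPM in CCI+YH against 25.9 ± 0.676 in CCI. ENSRNOG00000001783 was nearest to ENSRNOG00000010706 (r = 0.87), at 61.5 ± 1.92 CPM in CCI+YZP and 54.0 ± 3.65 in CCI. The measure holds the group differences for which the members were chosen, so that members lie near each other is not a separate finding. Among all tested genes, with or without an Ensembl identifier, members were among the 10 nearest of 5 members. There were 2 each for ENSRNOG00000021824, ENSRNOG00000045863 and ENSRNOG00000050647 and 1 each for ENSRNOG00000050655 and ENSRNOG00000019140. None was among the 10 nearest of ENSRNOG00000013548 or ENSRNOG00000010706.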

How the data were processed

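Each deposited table held the raw read count of every gene in 1 library. The submitters' processing notes list rn4 as the build and DESeq2 1.16.1 as a tool. The strand setting, aligner, counter and annotation were not given in the sources used here. Overlapping genes and near-identical copies may share reads. Libraries are taken as separate rats (3 sequenced per group). Same-group libraries differed beyond sampling noise (chi-square per gene 6.73 to 25.5). In the reference table (GRCr8, 47357 genes) 0 genes carried an Ensembl identifier, so no symbol, sequence or marker list was used.

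In R 4.3.3 with edgeR 4.0.16, filterByExpr (minimum count 10) kept 16522 of 34202 rows. After TMM scaling a quasi-likelihood model (glmQLFit, glmQLFTest) with a coefficient per group was fitted to all 15 libraries, with 10 residual degrees of freedom, and p-values were adjusted over all genes by Benjamini-Hochberg, with a threshold of 0.05. Log2 CPM used a prior count of 2. The scripts were tested on simulated data. DESeq2 1.42.0, limma 3.58.1 (voom), other scaling, filters, fits of fewer groups, a replicate block and the omission of each library were alternatives. DESeq2 was run on all rows with any count and its own filter, so its counts of calls are not out of the 16522 genes. The members and lists were chosen with earlier results of these data known. The genes named are the members, the other called gene and, for each member, the gene of highest Pearson r among those with an Ensembl identifier. After the choice was traced to pairwise comparisons that include CCI+BZ, members were tested only against Sham and within groups. Calls of members in the other comparisons are given as descriptions.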

Additional observations from a re-analysis of the deposited data

How the results depend on the processing

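The difference with against without YH kept its sign for all 7 members in all 22 refits, which the choice of the members on these libraries fixes. The number of genes called was 42 in DESeq2, 7 without Sham, and 3 to 6 with each library left out. DESeq2 called 470 genes for ligated against Sham, 2 for CCI+YZP against CCI+YH, 20 for CCI+BZ against CCI and 4 for the departure from additivity. For ligated against Sham 49 were called without a filter, 54 at a mean count of at least 50, and 0 to 158 with each library left out. For CCI+BZ against CCI 2 were called without a filter and 0 to 4 with each library left out (4 without CCI replicate 2), and for CCI+YZP against CCI+YH 0 to 1 (1 without CCI+YH replicate 2).

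Same-numbered libraries did not deviate together (r of -0.167 to 0.143 over 30 pairs, 3 over 0.1), so the numbers are not taken as a pairing. The replicate block gave 11 genes for ligated against Sham and 1 pair of members for the correlations (ENSRNOG00000021824 with ENSRNOG00000050647, adjusted permutation p = 0.0486), and changed no other count of calls by over 1.5 times. With it, r of ENSRNOG00000013548 with ENSRNOG00000021824 was -0.039 in place of 0.11.

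Leaving out each library, the correlations gave 0 to 1 pairs (1 without Sham replicate 2), and these small values changed sign. CCI+BZ minus CCI ran from -0.39 to 0.59 for ENSRNOG00000013548, and CCI+YZP minus CCI+YH from -0.067 to 0.019 for ENSRNOG00000045863. For ENSRNOG00000013548 r ran from -0.15 to 0.35 with ENSRNOG00000021824, -0.37 to 0.16 with ENSRNOG00000045863, -0.34 to 0.24 with ENSRNOG00000019140 and -0.22 to 0.11 with ENSRNOG00000050647. For ENSRNOG00000010706 it ran from -0.043 to 0.44 with ENSRNOG00000021824, -0.040 to 0.39 with ENSRNOG00000045863, -0.34 to 0.066 with ENSRNOG00000050655 and -0.31 to 0.21 with ENSRNOG00000050647. The cause of these changes was not tested. The lowest member counts were 28 to 42, for ENSRNOG00000050647 in CCI+BZ.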
